A study of Mus musculus with 6 samples.

Results

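The 8 genes described here are mucins other than Muc2, matched by symbol or Ensembl ID among the 46078 gene rows of a count table. They are Muc1, Muc3, Muc4, Muc13, Muc20, Muc5b, Muc5ac and Muc6, and each was found in 1 row. RNA came from the colon epithelial cell fraction, the cells released by a wash with EDTA and DTT, of unchallenged mice aged 2 months. There were 3 Lingo2-/- libraries, called mutant below, and 3 wild type libraries. The labels do not give the mutant allele, the strain, the sex, or whether the wild type mice were littermates. They also do not tie the 3 libraries of a genotype to separate animals, so a p-value here speaks only of how far libraries vary, and that variation may be technical.

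Membrane mucins are transmembrane proteins with a long, densely O-glycosylated extracellular domain and a short cytoplasmic tail. On enterocytes they stand at the tips of the microvilli and form the glycocalyx, the sugar coat beneath the mucus. The large secreted mucins are instead stored in granules and polymerise into the mucus gel, which in the colon is built of Muc2 from goblet cells. By this division Muc1, Muc3, Muc4, Muc13 and Muc20 are the membrane mucins of the list. Muc5b, Muc5ac and Muc6 are secreted gel-forming mucins, known from the airway and the stomach, and do not carry the label of membrane-bound mucins.

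Reads on genes numbered 7060769 to 13047682 in the mutant libraries and 25010618 to 28029583 in the wild type libraries, so low genes were measured less precisely in mutant libraries. The mitochondrial share of gene reads was 35.7% to 39.8% in mutant and 45.3% to 48.4% in wild type libraries. Levels are given as CPM, in which counts are scaled to the size of their library, with TMM factors. Lingo2, a leucine-rich repeat membrane protein, had 1, 1 and 0 reads in mutant replicates 1, 2 and 3 and 0, 7 and 0 reads in wild type replicates 1, 2 and 3. These counts do not check the genotype labels. The epithelial genes Epcam, at 688 ± 65.7 CPM in mutant and 729 ± 103 CPM in wild type libraries (SD, n = 3 each), and Cdh1, at 445 ± 59.4 and 542 ± 104 CPM, were abundant in both genotypes.

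Muc3, Muc13 and Muc4 carried nearly all reads of the list. The 250 bases before their RefSeq starts (GRCm38.p6; for Muc13 the first of 2) are shown because these are the start regions of the 3 mucins on which the results turn.
Muc3, minus strand of chr5:137166047-137166296: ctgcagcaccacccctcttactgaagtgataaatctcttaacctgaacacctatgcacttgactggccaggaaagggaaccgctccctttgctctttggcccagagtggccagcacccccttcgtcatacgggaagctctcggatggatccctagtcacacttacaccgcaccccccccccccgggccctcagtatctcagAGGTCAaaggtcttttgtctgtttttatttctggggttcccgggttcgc
Muc13, plus strand of chr16:33793787-33794036: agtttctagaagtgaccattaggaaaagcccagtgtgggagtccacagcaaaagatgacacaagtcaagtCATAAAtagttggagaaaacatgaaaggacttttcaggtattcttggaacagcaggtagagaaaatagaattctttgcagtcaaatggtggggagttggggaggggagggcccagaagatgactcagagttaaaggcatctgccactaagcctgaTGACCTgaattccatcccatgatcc
Muc4, plus strand of chr16:32735636-32735885: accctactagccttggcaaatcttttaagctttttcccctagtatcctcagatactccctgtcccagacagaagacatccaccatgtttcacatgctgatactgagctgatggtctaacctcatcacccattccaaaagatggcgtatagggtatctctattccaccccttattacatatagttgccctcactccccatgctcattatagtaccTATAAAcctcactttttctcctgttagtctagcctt

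Capitals mark matches, on either strand, to 6 short motifs searched in each window. The core of nuclear receptor sites, with the letters AGGTCA, stood 49 to 44 bases before the Muc3 start and, on the opposite strand, 25 to 20 bases before the Muc13 start, and 13.8% of 27025 such windows hold it. The letters TTTATG, bound by CDX factors, lay on the opposite strand 180 to 175 bases before the Muc13 start (11.1% of windows). A box of the letters TATAAA lay 36 to 31 bases before the Muc4 start (13.0% of windows). The core of HNF1 sites, searched as GTTAAT and held by 6.52% of windows, had no match in these 3. Nor had the letters AGATAA, a form of the motif of the GATA family of zinc finger factors, held by 10.2% of windows. The box of Sp1, searched as GGGCGG and held by 32.9%, had no match either. Other forms of the GATA motif, such as TGATAA, which the Muc3 window holds in lower case, were not searched. The absence of AGATAA therefore does not exclude a GATA site. RefSeq gives Muc13 a second start, at base 33794489 of chromosome 16, whose window is not shown and does hold GTTAAT, 61 to 56 bases before that start, and AGGTCA at 2 places on the opposite strand. The RefSeq start of Muc3 lies 16724 bases upstream of the start of the GENCODE M21 gene (chromosome 5, 137134922 to 137149322, minus strand). The exons used for its length, 1943 bases in all, are therefore those of the shorter model.

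Per kilobase of exon, Muc3 stood at 420 ± 57.5 CPM in mutant and 585 ± 124 CPM in wild type libraries (SD, n = 3 each). Muc13 followed at 339.5 ± 21.5 and 376 ± 54.6 CPM per kilobase. The ranges of Muc3 and Muc13 over the 6 libraries overlapped, so these neighbours in the order were not apart. Muc2 stood at 1050.2 ± 121 CPM per kilobase in mutant and 1016 ± 64.5 in wild type libraries over its 7127 bases of union exons, in 47 blocks. Dividing by its longest annotated transcript, of 2926 bases, gives 2558 and 2475. Reads were counted per gene, and that transcript is much shorter than the Muc2 exons, so these 2 values are likely too high. On the longest transcript Muc3 stood at 441 and 614 and Muc13 at 347 and 384 CPM per kilobase, so their distance below Muc2 turned on the Muc2 length. Muc4 was more than an order of magnitude lower, at 16.3 ± 3.48 and 14.5 ± 0.654 CPM per kilobase, and its range touched neither neighbour. The remaining members were low. Muc1 stood at 1.36 ± 0.581 CPM per kilobase in mutant and 1.63 ± 0.842 in wild type libraries, Muc20 at 0.677 ± 0.326 and 0.610 ± 0.102, and Muc6 at 0.411 ± 0.0943 and 0.409 ± 0.0803. The ranges of Muc1 and Muc20, and those of Muc20 and Muc6, overlapped. Muc5b was lowest of the detected members, at 0.0795 ± 0.0177 CPM per kilobase in mutant and 0.0849 ± 0.00647 in wild type libraries, below every value of Muc6.

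**Figure D1:**
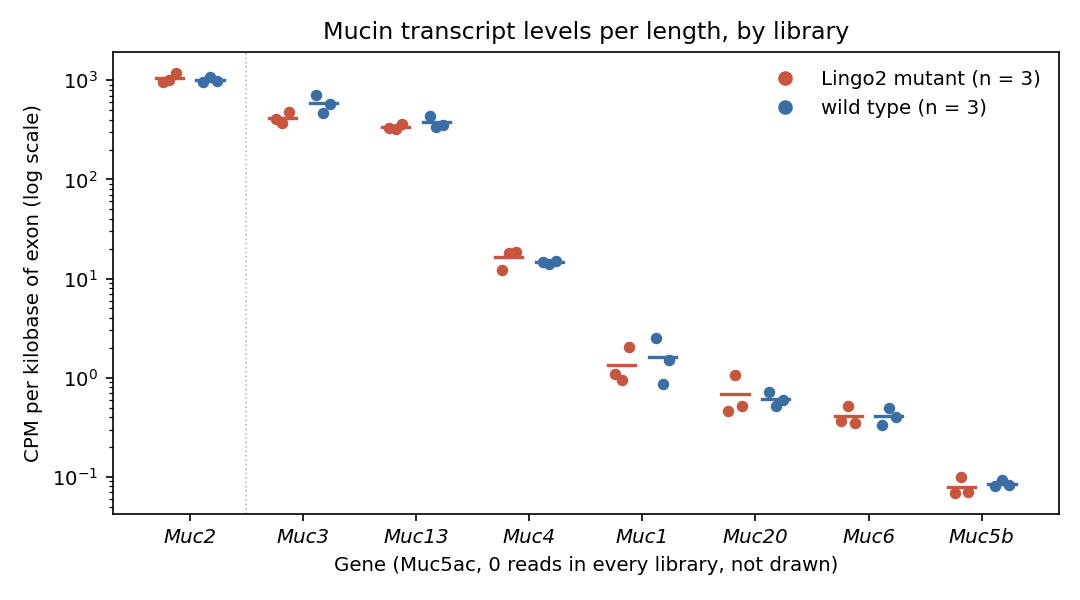
Levels in CPM per kilobase of exon on a log scale, 1 point per library, mutant left and wild type right of each gene, with lines at the mean of 3 libraries. On this length, the union of exons, Muc3 and Muc13 lie below the secreted mucin Muc2. Muc4 lies between them and the 4 low members, and the genotypes overlap for each gene.

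Muc5ac (chromosome 7, 141788972 to 141819231, plus strand), the main surface mucin of the stomach, had 0 reads in each of the 6 libraries. With 3 reads as the limit that a count of 0 sets, levels could reach 0.207, 0.374 and 0.347 CPM in mutant replicates 1, 2 and 3 and 0.112 to 0.138 CPM in wild type libraries, for counting error alone. It was the 1 member not tested, and 7 of 8 passed the filter on low counts. Its neighbours in the same gene cluster were detected at low levels, while Muc2, which lies between Muc6 and Muc5ac, was among the most abundant transcripts.

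None of the 7 tested members was called as different between genotypes. Of the 16757 tested genes 2.57% were called (430 genes, edgeR's quasi-likelihood test, Benjamini-Hochberg adjusted p under 0.05), 1.52% as lower and 1.04% as higher in mutant libraries. With so few members, a count of 0 does not set them apart from that share. A missed threshold also does not show equal levels. The CPM of the 2 genotypes overlapped for each of the 7, while 24.1% of tested genes had groups that did not overlap. At an unadjusted p under 0.05 the test held 1 member, Muc3, and 18.6% of all tested genes. DESeq2's Wald test also called 0 members. In the authors' deposited table, too, 0 of 7 members had an adjusted p under 0.05, where 4.71% of the genes with an adjusted p did. The fitted log2 fold changes, mutant over wild type, had a median of −0.13 over the 7 members, beside 0.00098 over all tested genes.

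Muc3, whose human counterpart in the intestine is MUC17, had the lowest fitted value of the list. It was at 789.7, 720.9 and 939.6 CPM in mutant replicates 1, 2 and 3, against 1384, 903 and 1123 CPM in wild type replicates 1, 2 and 3. Mutant replicate 3 lay above wild type replicate 2, which is the only overlap, and wild type replicate 1 was the highest. The log2 fold change was −0.48 ± 0.17 (SE), a fold of 0.718 with a 95% interval of 0.558 to 0.925, with an unadjusted p of 0.0146 and an edgeR adjusted p of 0.152. The authors' deposited table gives Muc3 a log2 fold change of −0.47 and an adjusted p of 0.0621, and DESeq2's Wald test run here gave −0.48 and 0.0573. Without a filter on low counts edgeR called it (−0.50, edgeR adjusted p = 0.00145), in a setting that called 1493 genes in all. Leaving out wild type replicate 1 brought the value to −0.31 (edgeR adjusted p = 0.374), and leaving out wild type replicate 2 brought it to −0.62 (0.0754). The 75-base windows of its annotated transcript matched no other gene, among them the neighbouring paralogue Muc3a.

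Muc13, the membrane mucin that is broadly present along the intestinal epithelium, varied less. It was at 1012, 978 and 1104 CPM in mutant replicates 1, 2 and 3, against 1331, 1024 and 1069 CPM in wild type replicates 1, 2 and 3. Wild type replicate 1 stood apart above the other 5 libraries, which lay within 978 to 1104 CPM. The log2 fold change was −0.15 ± 0.14 (edgeR adjusted p = 0.608), with a 95% interval of the fold from 0.734 to 1.11, and −0.023 without wild type replicate 1. Muc13 (chromosome 16, 33794037 to 33819934, plus strand) has a coding tandem repeat with a period of 81 bases, and 12.6% of the 75-base windows of its longest transcript occur in it more than once. A single read of that length from there could not be placed to 1 position. The window of 75 bases is a setting, and longer or paired reads could be placed better. This limit is not particular to Muc13. The same share was 21.6% for Muc5ac, 18.5% for Muc5b, 9.38% for Muc6 and 4.08% for Muc4, and 0 for Muc1, Muc3 and Muc20. The recurring windows of Muc13 span bases 312 to 824 of its transcript, 513 bases in all. The 2 copies located below, at bases 312 to 473, are therefore only part of the repeat. The first copy is shown because reads within it are the ones a count of unique alignments can miss, and the next 81 bases are identical to it.
Muc13 repeat, plus strand, first of 2 copies within chr16:33799001-33799162: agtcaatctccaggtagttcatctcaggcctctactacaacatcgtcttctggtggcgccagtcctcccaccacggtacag

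Within a library the ratio of 2 genes does not depend on the scaling of library sizes. The ratio of Muc3 to Muc13 CPM was 0.780, 0.737 and 0.851 in mutant replicates 1, 2 and 3, against 1.04, 0.882 and 1.05 in wild type replicates 1, 2 and 3. Every mutant ratio lay below every wild type ratio. The ratio of Muc3 to Muc4 was likewise 5.45, 3.39 and 4.30 in mutant libraries, against 8.10, 5.54 and 6.30 in wild type libraries. The ratio of Muc4 to Muc13 overlapped, at 0.143, 0.218 and 0.198 in mutant libraries, against 0.128, 0.159 and 0.167 in wild type libraries. The ratios of Muc2 to Muc13 and of Muc2 to Muc3 overlapped as well. Among single tested genes, 24.1% had CPM that did not overlap, and no such share was computed for ratios. All these ratios were formed after the levels were seen and were not tested. Of the summed CPM of the 8 members, Muc3 made up 37.5% to 41.3% in mutant and 43.0% to 47.7% in wild type libraries.

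**Figure D2:**
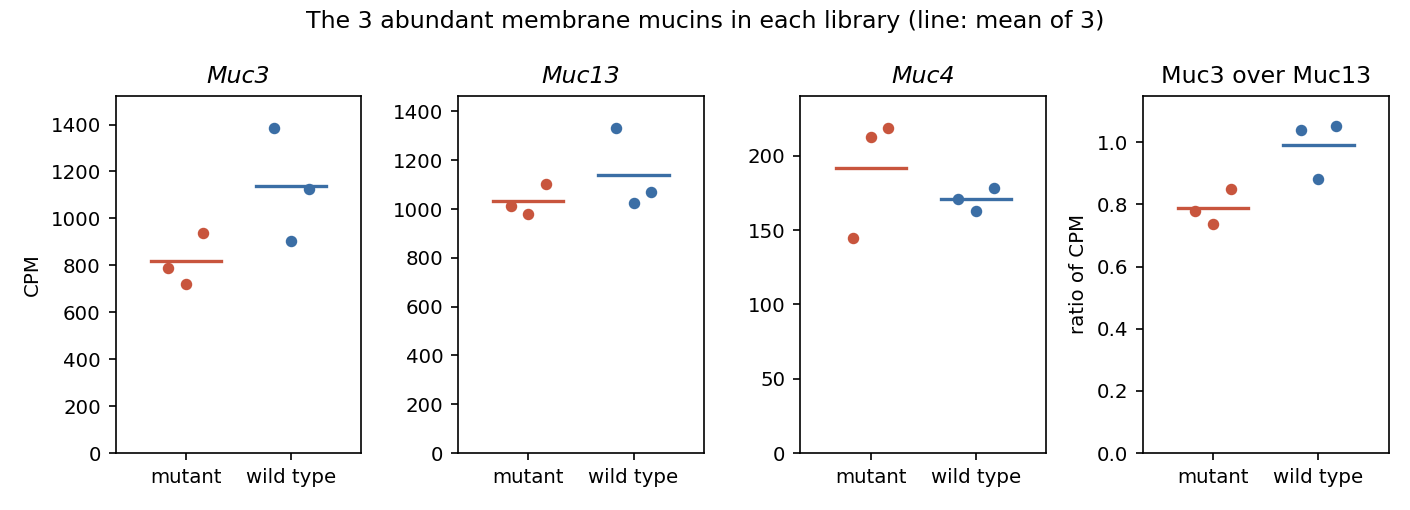
CPM of Muc3, Muc13 and Muc4 and the ratio of Muc3 to Muc13 CPM, 1 point per library with lines at the mean of 3, mutant left and wild type right, on axes that start at 0. The CPM of the genotypes overlap for all 3 genes, while the mutant ratios of 0.737 to 0.851 lie below the wild type ratios of 0.882 to 1.05. This ratio was formed after the levels were seen and was not tested.

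Muc4, a large membrane mucin that binds the receptor ErbB2, was at 145, 213 and 219 CPM in mutant replicates 1, 2 and 3, against 171, 163 and 178 CPM in wild type replicates 1, 2 and 3. Mutant replicate 1 was the lowest of all libraries and the other mutant libraries were the highest. The log2 fold change was 0.17 ± 0.14 (edgeR adjusted p = 0.566), with a 95% interval of the fold from 0.904 to 1.40. It ranged from 0.057 to 0.33 when single libraries were left out. Muc20, a small membrane mucin known in human cells to bind the receptor MET, lies on the opposite strand and overlaps the end of Muc4 (chromosome 16, 32777419 to 32782391), with 627 exonic bases in common. It had 27, 34 and 18 reads in mutant and 63, 56 and 56 reads in wild type libraries, far below the 1707 to 2101 and 3715 to 4370 reads of Muc4. As the strand setting of the counting is not given in the sources used here, reads from the shared stretch, 15.6% of the Muc20 exons, are uncertain. Muc20 was at 1.86, 4.24 and 2.08 CPM in mutant replicates 1, 2 and 3, against 2.90, 2.09 and 2.39 CPM in wild type replicates 1, 2 and 3. Mutant replicate 2 was the highest and the genotypes overlapped. The log2 fold change of Muc20 was 0.10 ± 0.31 (edgeR adjusted p = 0.891), and −0.33 without mutant replicate 2.

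Muc1, a membrane mucin of many glandular epithelia, had 37, 18 and 41 reads in mutant and 129, 54 and 83 reads in wild type libraries. This was 2.55, 2.24 and 4.74 CPM in mutant replicates 1, 2 and 3, against 5.93, 2.01 and 3.54 CPM in wild type replicates 1, 2 and 3. Wild type libraries held both the highest and the lowest value. The log2 fold change was −0.27 ± 0.44 (edgeR adjusted p = 0.785), its 95% interval of the fold ran from 0.407 to 1.68, and the value was 0.18 without wild type replicate 1. A change of 2-fold down lies inside this interval.

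Of the gel-forming members, Muc6, a mucin of gastric glands, was at 3.45, 4.86 and 3.24 CPM in mutant replicates 1, 2 and 3, against 3.13, 4.62 and 3.75 CPM in wild type replicates 1, 2 and 3. Muc5b, the main secreted mucin of the airway, was at 1.03, 1.50 and 1.04 CPM in mutant and 1.20, 1.38 and 1.24 CPM in wild type libraries, from 9 to 15 and 26 to 37 reads. The genotypes overlapped for both. The log2 fold change was −0.016 ± 0.23 for Muc6 (edgeR adjusted p = 0.978; fold 0.699 to 1.40, 95% interval) and −0.13 ± 0.30 for Muc5b (edgeR adjusted p = 0.857; fold 0.585 to 1.44). Of the 12 gastric surface and gland markers, which include Muc5ac and Muc6, 3 were at 0 in every library, Gkn1, Gkn2 and Muc5ac. Their summed level was 5.55 to 8.23 CPM in mutant and 5.84 to 6.75 CPM in wild type libraries. Muc6 itself made up most of that sum in every library. Of the 3 gastric markers tested, none was called, with Tff2, a trefoil peptide, at −1.25 ± 0.43 and Vsig1, a junction protein of gastric epithelium, at 0.58 ± 0.35.

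**Figure D3:**
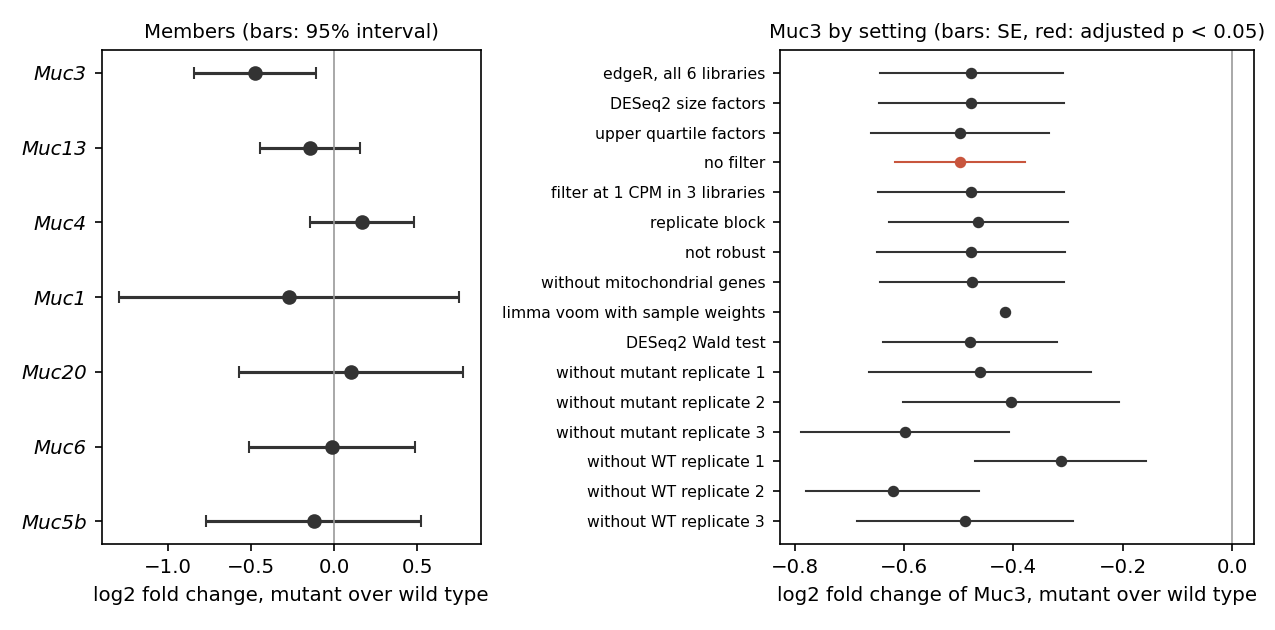
Left, log2 fold change of each tested member, mutant over wild type, with its 95% interval; right, the value for Muc3 under each setting, with SE bars where the tool gave one. Every Muc3 value lies below 0, from −0.62 to −0.31, and 1 setting, no filter, passed the threshold.

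Genes with the most even ratio to a member over the 6 libraries were sought among 9050 others with a mean log2 CPM of at least 3, by the SD of the log2 ratio of CPM. For Muc3 these were Fam129a (SD 0.038), Foxo1 (0.056), a transcription factor, and Dsg2 (0.089), a desmosomal cadherin, beside a median of 0.37 over all candidates. For Muc13 they were Chtf8 (0.021), Ufm1 (0.023), a ubiquitin-like modifier, and Atf6 (0.026), a sensor of endoplasmic reticulum stress, beside a median of 0.22. For Muc4 they were Ccdc85c (0.044) and the ribosomal proteins Rpl13 (0.054) and Rpl27a (0.059), beside a median of 0.28. None of these 9 genes was called, and Foxo1 was nearest to the threshold (−0.54, edgeR adjusted p = 0.0617). All ratios share the same 6 libraries, and the pick of the smallest of many is a description.

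Over all tested genes, 1.04% were called higher and 1.52% lower in mutant libraries, and these shares stand beside the counts of each list below. Around the members, the brush border list, the proteins that build and space the microvilli on which membrane mucins stand, had 20 tested genes, with none higher and 1 lower. The gene that fell was Msn, or moesin, a linker of membrane and actin that lymphocytes also express, at 15.4 ± 1.00 CPM in mutant and 27.7 ± 4.01 CPM in wild type libraries (−0.85 ± 0.12, edgeR adjusted p = 0.00365). The fitted value was below 0 for 16 of the 20 genes, beside 49.9% of all tested genes, and the median was −0.07. The mucin-like protocadherin Cdhr5 was at 417 ± 21.7 CPM in mutant and 532 ± 90.5 CPM in wild type libraries (−0.35 ± 0.13, edgeR adjusted p = 0.190). Its binding partner Cdhr2 (−0.31 ± 0.14) and the bundling protein Pls1 (−0.31 ± 0.12), both chosen after their values were seen, also missed the threshold (edgeR adjusted p = 0.250 and 0.200). With the replicate block, or without wild type replicate 3, 2 genes of this list were called.

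Surface colonocytes, the mature absorptive cells that carry the glycocalyx, were read from 12 markers, none at 0 in all libraries. None was called, 11 had a fitted value below 0, beside 49.9% of all tested genes, and the median was −0.28. Their summed level was 7240, 5699 and 6483 CPM in mutant replicates 1, 2 and 3, against 8317, 7170 and 8513 CPM in wild type replicates 1, 2 and 3, with an overlap between mutant replicate 1 and wild type replicate 2. Mall, a membrane raft protein, was at −0.25 ± 0.096, and Guca2b, the peptide uroguanylin, was the 1 marker above 0 (0.87 ± 0.23, edgeR adjusted p = 0.0737). Of 12 goblet cell markers 3 were higher, Spdef, Atoh1 and Spink4, the median was 0.51, and 2 had a fitted value below 0. Those 2, named after their values were seen, were the lectin Zg16, at 692 ± 72.9 CPM in mutant and 926 ± 318 CPM in wild type libraries (−0.42 ± 0.24), and the trefoil peptide Tff3, at 248.9 ± 41.9 and 310.9 ± 89.0 CPM (−0.32 ± 0.23), and neither was called. The summed level of the 12 goblet cell markers was 16766 to 23911 CPM in mutant and 13744 to 16528 CPM in wild type libraries. Most of the gap in that sum lay in Clca1, at 4217 ± 1494 and 1927 ± 765 CPM, and Fcgbp, at 4552 ± 966 and 2753 ± 973 CPM. Both were named after their values were seen, and neither was called (edgeR adjusted p = 0.129 and 0.152). Muc2, itself in that list, was at 6789, 7212 and 8454 CPM in mutant and 6907, 7767 and 7055 CPM in wild type libraries (0.05 ± 0.16, edgeR adjusted p = 0.905). The ratio of Muc2 to Muc3 CPM averaged 9.20 ± 0.725 in mutant and 6.62 ± 1.83 in wild type libraries, and the lowest mutant and the highest wild type ratio both rounded to 8.60. In bulk RNA, fewer cells of a type and less RNA per cell cannot be told apart, and the part of these markers in the Muc3 values was not tested.

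The 8 epithelial identity markers had a median of −0.0026 and none was called, with Krt18, a keratin, at 0.20 ± 0.11. Markers of T cells and intraepithelial lymphocytes were lower for 12 of 12 genes (median −1.73), among them Cd7 (−2.08 ± 0.13), Cd3g (−1.99 ± 0.13), Nkg7 (−1.84 ± 0.17) and Itgae (−1.17 ± 0.11). Their summed level was 190.1 to 218 CPM in mutant and 448 to 539 CPM in wild type libraries. These genes were already known to be lower in these libraries, so the count is no independent support. The call of Ptprc ended in 5 of 6 single-library omissions and with the replicate block (edgeR adjusted p = 0.0782), and that of Cd247 ended without mutant replicate 2 (0.0507). Of deep crypt secretory markers 2 of 8 rose, Spink4 (1.01 ± 0.16) and the Notch ligand Dll4 (0.73 ± 0.17). The median of this list was 0.60, 1 value was below 0, and the summed level was 4022 to 6334 CPM in mutant and 1884 to 2703 CPM in wild type libraries, without overlap. Most of the gap in that sum lay in Mptx1, at 2997 ± 996 CPM in mutant and 933 ± 337 CPM in wild type libraries. Mptx1 was named after its values were seen and was not called (edgeR adjusted p = 0.0558). Spink4 and Agr2 are also in the goblet list. Of fibroblast markers 1 of 8 fell, the matrix protein Mfap5 (−1.75 ± 0.39), while all 8 fitted values were below 0 with a median of −1.36. Their summed level was 225, 495 and 288 CPM in mutant replicates 1, 2 and 3, against 977, 880 and 332.5 CPM in wild type replicates 1, 2 and 3, and the genotypes overlapped. Of mesothelial markers none of 5 was called, with Upk3b at −1.40 ± 0.52 and Lrrn4 at −1.30 ± 0.49, 4 values below 0 and a median of −0.895. The call of Dll4 ended in each of the 6 single-library omissions, with the replicate block (edgeR adjusted p = 0.0805) and without robust fitting (0.0506). That of Mfap5 ended in 4 omissions, without robust fitting (0.0523) and with limma voom (adjusted p = 0.0805).

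**Figure D4:**
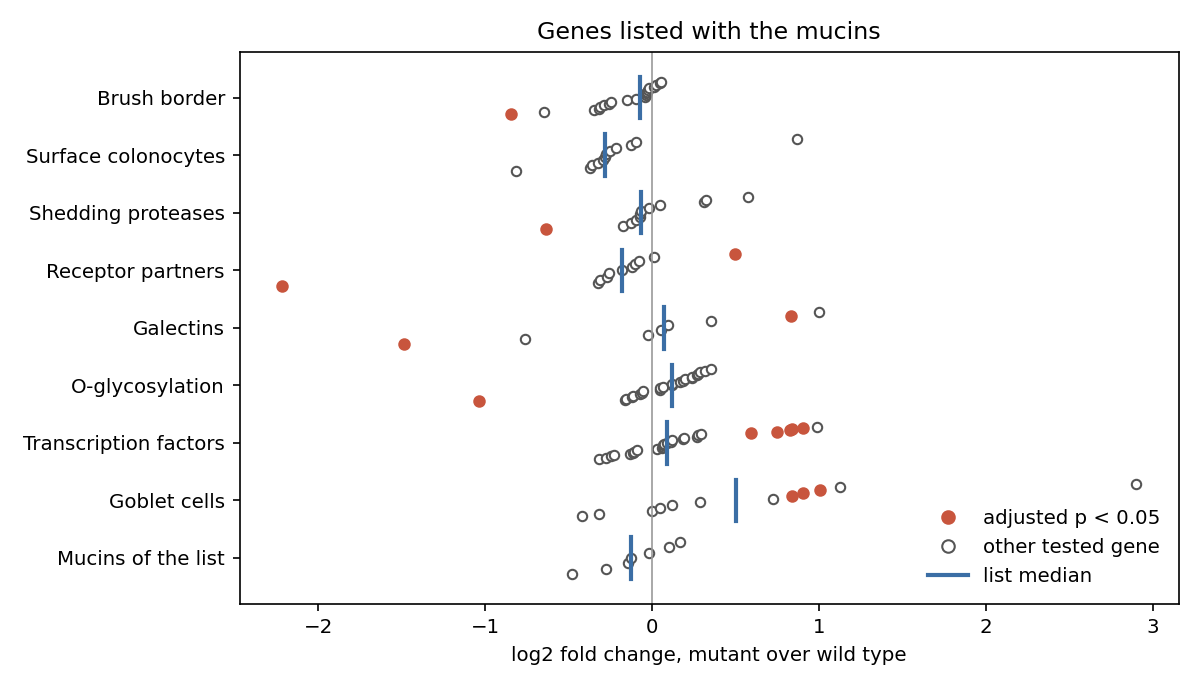
Log2 fold changes of the tested genes of 9 lists, mutant over wild type, 1 point per gene, filled where the edgeR adjusted p was under 0.05, with a line at the list median. The surface colonocyte points lie mostly below 0 (median −0.28), the goblet points mostly above (0.51), and no mucin of the list is filled.

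Among other mucins and mucin-like membrane proteins, 7 of 18 were tested and none was called (median −0.21). Mcam, an adhesion molecule of vessels and muscle that was placed in this list, was at −1.40 ± 0.46 (edgeR adjusted p = 0.136). Muc3a, the paralogue beside Muc3, was at 87.4, 90.0 and 95.7 CPM in mutant and 71.9, 88.3 and 100.1 CPM in wild type libraries (0.07 ± 0.12, edgeR adjusted p = 0.793), and it was chosen after its values were seen. Muc12, Muc16, Muc17 and Muc21 matched no row by symbol, and Muc15 and Muc19 had 1 read each over the 6 libraries.

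Galectins, lectins that bind the sugar chains of mucins, had 1 of 8 tested genes higher and 1 lower (median 0.07). Lgals12 rose to 30.4 ± 3.65 CPM in mutant libraries, against 17.0 ± 0.354 CPM in wild type libraries (0.83 ± 0.11, edgeR adjusted p = 0.00185), and was called in each of the 15 alternatives. Lgals1 fell (−1.48 ± 0.28, edgeR adjusted p = 0.0453), with 7.92 ± 0.389 and 22.2 ± 7.59 CPM, and lost its call when any library but wild type replicate 3 was left out, and with limma voom (adjusted p = 0.113). Of 11 tested receptor partners Fgfr3, a growth factor receptor, rose (0.496 ± 0.12) and Hgf, the ligand of MET, fell (−2.21 ± 0.52, both edgeR adjusted p = 0.0458), and Hgf stood at 0.168 ± 0.0716 CPM in mutant libraries, under the limit that a count of 0 sets there, and 0.769 ± 0.149 CPM in wild type libraries. Hgf lost its call without any 1 mutant library and did not pass the filter on low counts without any 1 wild type library. Fgfr3 kept its call in 1 omission, that of wild type replicate 3, and lost it with upper quartile factors (edgeR adjusted p = 0.0548) and without robust fitting (0.0622). Neither was called with the replicate block. The median of the receptor partner list was −0.18, with 9 of 11 values below 0, beside 49.9% of all tested genes. Its summed level was 1379, 1437 and 1441 CPM in mutant replicates 1, 2 and 3, against 1783, 1512 and 1586 CPM in wild type replicates 1, 2 and 3, without overlap. Most of the gap in that sum lay in Erbb3, at 360 ± 22.9 CPM in mutant and 451 ± 31.9 CPM in wild type libraries, and Ctnnb1, at 485 ± 2.77 and 548 ± 63.6 CPM. The CPM of the genotypes did not overlap for 7 of the 11 genes of this list, 6 lower and 1 higher, beside 24.1% of all tested genes. Apart from Hgf, the 5 lower ones were not called, with the receptors Erbb3 (−0.32 ± 0.11, edgeR adjusted p = 0.140) and Erbb2 (−0.27 ± 0.10, 0.174), the adaptor Grb2 (−0.31 ± 0.10, 0.131), Ctnnb1, or beta-catenin (−0.18 ± 0.12, 0.447), and the kinase Src (−0.12 ± 0.087, 0.503). These 5 were named after their values were seen. Fibroblasts also express Lgals1 and Hgf, and the part of the lower fibroblast markers in these values was not tested.

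Proteases known to cut membrane proteins from the surface had none of 12 higher and 1 lower (median −0.07). That gene was Mep1a, the alpha subunit of the brush border protease meprin, at 231 ± 9.05 CPM in mutant and 359 ± 64.8 CPM in wild type libraries (−0.63 ± 0.13, edgeR adjusted p = 0.0276). Its call ended without any 1 mutant library, wild type replicate 1 or wild type replicate 3 (edgeR adjusted p up to 0.123). Of 23 tested enzymes and carriers of mucin-type O-glycosylation, 1 fell and none rose (median 0.12). This was Gcnt1, which branches core 1 chains into core 2, at 40.0 ± 2.95 CPM in mutant and 81.8 ± 23.0 CPM in wild type libraries (−1.03 ± 0.19, edgeR adjusted p = 0.0369). The call of Gcnt1 ended without any 1 mutant library or wild type replicate 3 (edgeR adjusted p up to 0.149).

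Of 27 tested transcription factors with known roles at mucin genes or in cells that make mucins, 5 rose and none fell (median 0.09). Over all tested genes 1.04% rose and 1.52% fell. Spdef (0.84 ± 0.10) and Atoh1 (0.90 ± 0.11), of the goblet and secretory lineage, Sox9 (0.75 ± 0.13), of the crypt base, and Foxa3 (0.59 ± 0.12) were joined by Foxa2 (0.83 ± 0.19), which lay outside the rule for named genes and was named because the count is small. Spdef and Atoh1 were called whichever library was left out, Sox9 lost its call in 2 of 6 such omissions, Foxa3 in 3 and Foxa2 in 4. Foxa2 was also not called with the replicate block (edgeR adjusted p = 0.0702), where the list had 4 called genes, or without robust fitting (0.0629). Without mutant replicate 3 the list had 2 called genes, and without mutant replicate 2 or wild type replicate 2 it had 3.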

How the data were processed

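Total RNA of 6 libraries was made with a stranded kit that removes ribosomal RNA, per the labels' protocols. Trimmomatic 0.39, STAR, HTSeq and DESeq2 with GRCm38 are named in the submitters' processing notes. Neither the annotation release nor the strand setting is given in the sources used here. The authors deposited raw read counts per gene and 5 summary lines, which stayed out of library sizes. Those lines held, of all alignments, 23.6% to 27.6% in mutant and 18.5% to 22.1% in wild type libraries in no feature, 1.34% to 1.57% and 1.23% to 1.28% ambiguous, and 30.8% to 33.9% and 36.5% to 36.9% not unique. A second table holds the authors' deposited comparison, with normalized signal (100% of values equal the count times a library's factor at a relative tolerance of 1e-06), log2 fold changes, a test score and p-values.

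The test on counts was that of edgeR 4.0.16 under R 4.3.3 (filterByExpr, TMM, robust quasi-likelihood F test, threshold 0.05 over 16757 genes), and the script was tested on simulated counts. SE is the fold change over the square root of F, and 95% intervals use its degrees of freedom. CPM per kilobase uses the union of GENCODE M21 exons. Intervals and floors cover counting or library spread only. Alternatives were DESeq2 1.42.0, limma 3.58.1 voom, other factors, filters and dispersions, a replicate block and single-library omissions. Replicate libraries differed by more than sampling noise (chi-square 8.40 to 19.4 per degree of freedom).

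The members and lists were chosen with earlier results of these data known. Named genes are the members, Muc2, 3 genes of most even ratio to each of the 3 highest members, and up to 4 called genes of each list, or the 2 of smallest p where none was called.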

Additional observations from a re-analysis of the deposited data

How the results depend on the processing

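The count of called genes, 430, was 1493 with no filter on low counts and 656 with DESeq2's Wald test, and lay between 174 and 674 when single libraries were left out. The lowest counts, 174 and 180, came without mutant replicate 2 or 3, and 674 came without wild type replicate 3. The count of called members, 0, was 1 with no filter, where Muc3 passed at −0.50, and 0 in the other 14 alternatives. Muc6 changed sign with the replicate block (0.0092). Over single-library omissions Muc1 ranged from −0.65 to 0.18, Muc20 from −0.33 to 0.35 and Muc6 from −0.21 to 0.14, each with a change of sign, and none was called. Muc3, Muc4, Muc13 and Muc5b kept their sign in all 15 alternatives. Replicate numbers gave no clear pairing of the libraries, but deviations within groups of 3 libraries cannot exclude one. The correlations of the deviations of same-numbered libraries were −0.13, 0.13 and −0.022, not every library correlated best with its own number, and with the replicate block 360 genes and 0 members were called. Muc3 then stood at −0.46 (edgeR adjusted p = 0.185). Scaling to gene reads without mitochondrial genes raised the levels per kilobase of all 7 detected members by more than 1 SD in both genotypes. That setting shrinks the total and also leaves out the TMM factors, and these steps were not separated. The cause of the other changes was not tested. Of the pathway lists, single-library and block counts were added after seeing the data. Depth limits Muc1, Muc20, Muc5b and Muc6, with 9 to 50 reads in each mutant library.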

Other observations

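Gm15657, an antisense gene of Muc13, overlaps the first part of that gene (chromosome 16, 33794037 to 33796874) and has 184 exonic bases in common with it. It had 63.9, 60.4 and 39.6 CPM in mutant replicates 1, 2 and 3, against 63.9, 57.9 and 79.3 CPM in wild type replicates 1, 2 and 3 (log2 fold change −0.29 ± 0.19, edgeR adjusted p = 0.461). Its reads came to 3.58% to 6.31% of those of Muc13 in mutant and 4.80% to 7.42% in wild type libraries. Without the strand setting of the counting, reads from the shared stretch cannot be assigned with certainty. Among pairs of members, Muc5b and Muc6 had the most even ratio over the 6 libraries (SD of the log2 ratio 0.13, with a pseudocount of 0.5), although both rest on few reads. Muc1 and Muc6 had the least even ratio (0.75).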
